A study of Mus musculus with 6 samples.

Results

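Genes of the complement, coagulation and kinin cascades were described in whole liver of Lmln-KO and wild-type (WT) mice. The 36 genes were chosen by name, as complement, coagulation and kinin genes listed as secreted by hepatocytes, although Cfp, F8 and Cfd are known mainly from other cells, and all 36 were found among the 55367 gene names of the count table. The Lmln-KO group held 3 libraries from mice with both copies of Lmln disrupted (Lmln-/-), 2 of them aged 46 weeks and that of replicate 3 aged 39 weeks. The WT group held 3 libraries from mice aged 46 weeks. All mice were of the C57BL/6J strain, RNA came from whole liver, and the labels give neither the sex of the animals nor how the allele was made. Lmln encodes invadolysin, a metalloprotease.

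The liver makes most of the complement and clotting proteins of blood plasma. In complement, lectins or antibodies start a chain of serine proteases that cleaves C4, C2 and then C3, an amplification loop runs through factors B and D, and C5 to C9 assemble into a membrane pore. In coagulation, proteases that mostly need vitamin K for their maturation turn prothrombin into thrombin, thrombin cuts fibrinogen into fibrin, and plasmin dissolves the clot. The contact system, with factor XII, plasma prekallikrein and the kininogens, feeds clotting and releases bradykinin.

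Each library held between 17388360 and 22494696 counts, with the 3 Lmln-KO libraries the deeper ones. Counts of Lmln were 4, 12 and 2 in the Lmln-KO libraries of replicates 1 to 3, against 79, 80 and 39 in the WT libraries. Y-linked transcripts were present in Lmln-KO replicates 1 and 2 and in WT replicate 1, and Xist, the RNA of the inactive X chromosome, in Lmln-KO replicate 3 and in WT replicates 2 and 3. The groups therefore differed in the mix of these libraries, and values are also given with a term for it in the fit (the sex-marker term). Hepatocyte markers were abundant throughout: 8 of 8 were tested, and their summed level was 60823 to 74026 CPM (counts scaled to library size) for Lmln-KO, against 75753 to 95685 CPM for WT. Alb (albumin) made up most of each sum, with 45714.5 to 60834 CPM in Lmln-KO, against 62501 to 74329 CPM in WT. For every other marker of the list the groups overlapped. The 36 genes took 3.25% to 5.04% of all counts in Lmln-KO libraries and 3.62% to 4.23% in WT libraries.

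All 36 genes had enough counts to be tested for differences. Levels between genes are compared here as normalized CPM per kb of exon, averaged over the 6 libraries. C3, the protein on which all complement pathways converge, stood highest with 2348 CPM per kb, and ranked 20 among 18703 tested genes. The fibrinogen chains Fga, Fgg and Fgb followed with 1520, 1381 and 1090 CPM per kb, ahead of Vtn (vitronectin, an adhesive inhibitor of the membrane pore) with 924 and Plg (plasminogen) with 541. Of the 36 genes, 6 lay among the 100 highest tested genes and 21 among the 500 highest. At the low end stood F8 (factor VIII, the cofactor that is made mainly by endothelial cells) with 6.26 CPM per kb, and Cfd (factor D, the adipsin of fat tissue) with 2.27. Both ranked beyond the 5000 highest tested genes. The spread between libraries differed widely from gene to gene: the standard deviation of log2(CPM + 1) over the 6 libraries was smallest for Klkb1 at 0.054 and largest for C8a at 1.36. Of all tested genes, 1.39% had a smaller value than Klkb1 and 99.2% a smaller value than C8a.

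**Figure D1:**
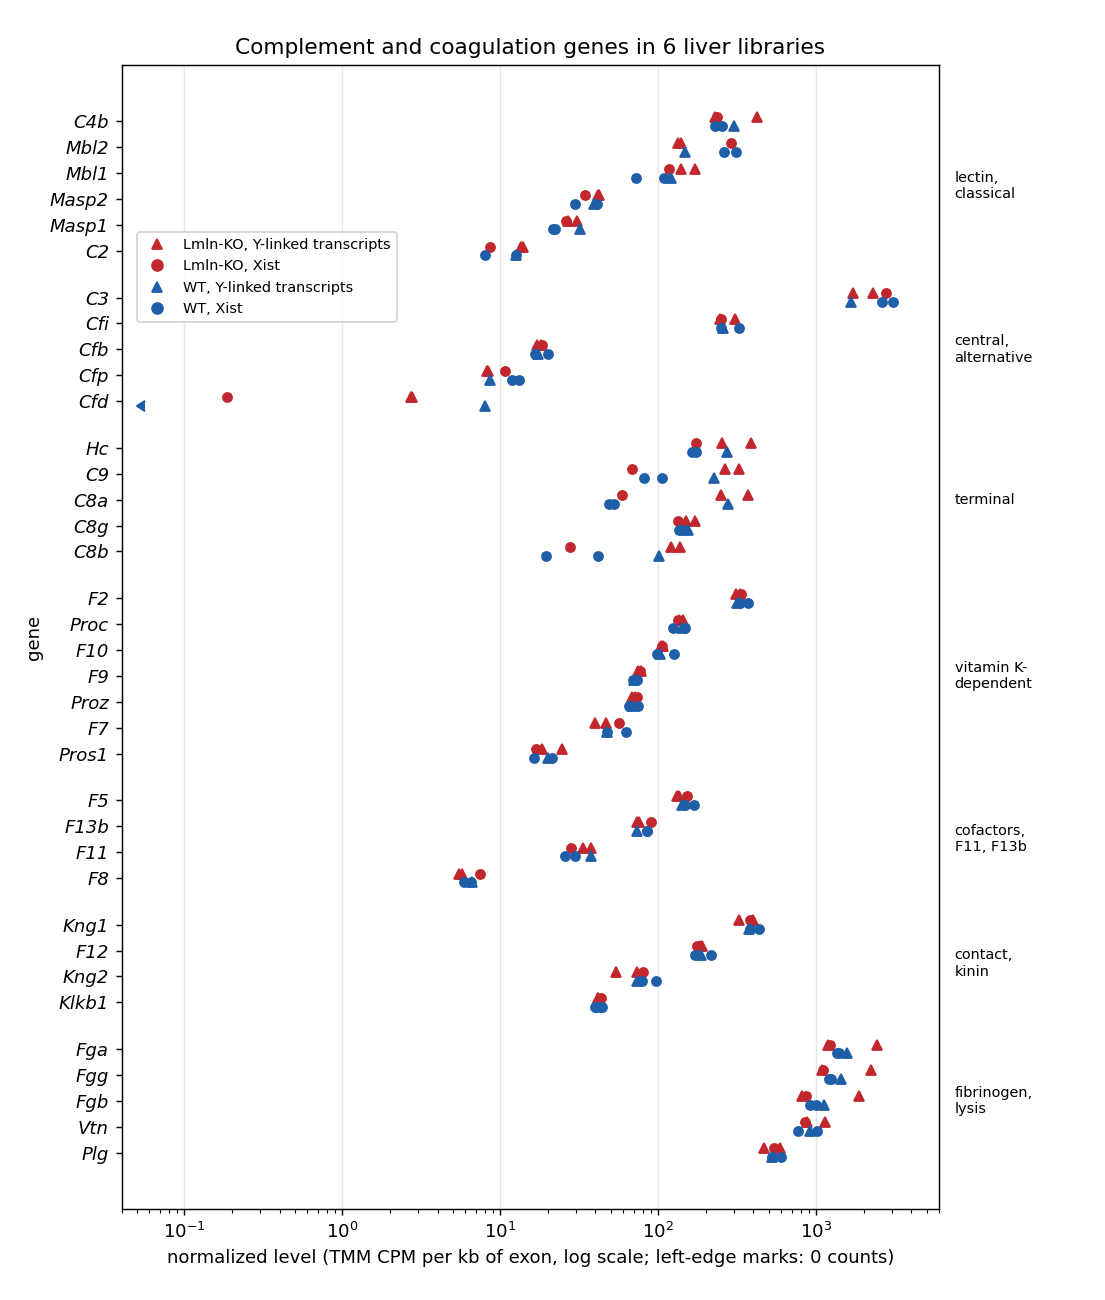
Normalized level (TMM CPM per kb of exon, log scale) of each of the 36 genes, by role, in Lmln-KO (red, upper row of each gene) and WT (blue, lower row) libraries; triangles are libraries with Y-linked transcripts, circles libraries with Xist, and marks at the left edge libraries with 0 counts. C3 and the fibrinogen chains stand highest, Cfd lowest, and triangles part from circles for C8a, C8b and C9.

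The comparison of genotypes asked which of these transcripts differ in liver when Lmln is disrupted. In edgeR's quasi-likelihood test, with Benjamini-Hochberg adjustment over all genes at 0.05, none of the 36 genes was called, nor was any other gene (0.0% of 18703). DESeq2, which gave no p for Cfd, called 0 of the other 35, against 0.128% of all tested genes. With the sex-marker term the counts among the 36 were 0 in edgeR and 0 in DESeq2, where all tested genes gave 0.00535% and 0.166%. At an unadjusted p under 0.05 edgeR reached 1 of the 36, Mbl1, or 2.78%, against a background of 4.66%, and with the sex-marker term 0 of the 36, against 4.34%. The groups did not overlap for 1 gene, F9, or 2.78%, against a background of 10.3%. F9 was higher in Lmln-KO (background 4.61%), and no gene of the 36 was lower without overlap (background 5.73%). The median log2 fold change was 0.019 over the 36 genes and -0.0038 over all tested genes, with 19 genes above 0 and 17 below. With the sex-marker term the median was 0.0081 over the 36 and -0.0022 over all tested genes.

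How narrowly a difference was bounded varied with the gene. The 95% interval of the log2 fold change lay wholly between -0.5 and 0.5 (a factor of 1.41 either way) for 18 of the 36 genes, or 50.0%, against 33.0% of all tested genes. With the sex-marker term it did so for 24 genes, or 66.7%, against 38.4%. The other 12 in that fit were C3, C4b, Mbl1, Cfd, Kng2, the 3 fibrinogen chains, Hc, C8a, C8b and C9. The shares over all tested genes are not matched for level, and 21 of the 36 lay among the 500 highest tested genes. An absolute log2 fold change of at least 0.5 was seen by genotype alone for C8a, C8b and C9 (8.33%, against a background of 13.6%). With the term it was seen for Cfd (2.78%, against 11.5%). In bulk liver a lower level can come from fewer cells of a type or from less RNA per cell, and these cannot be told apart.

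**Figure D2:**
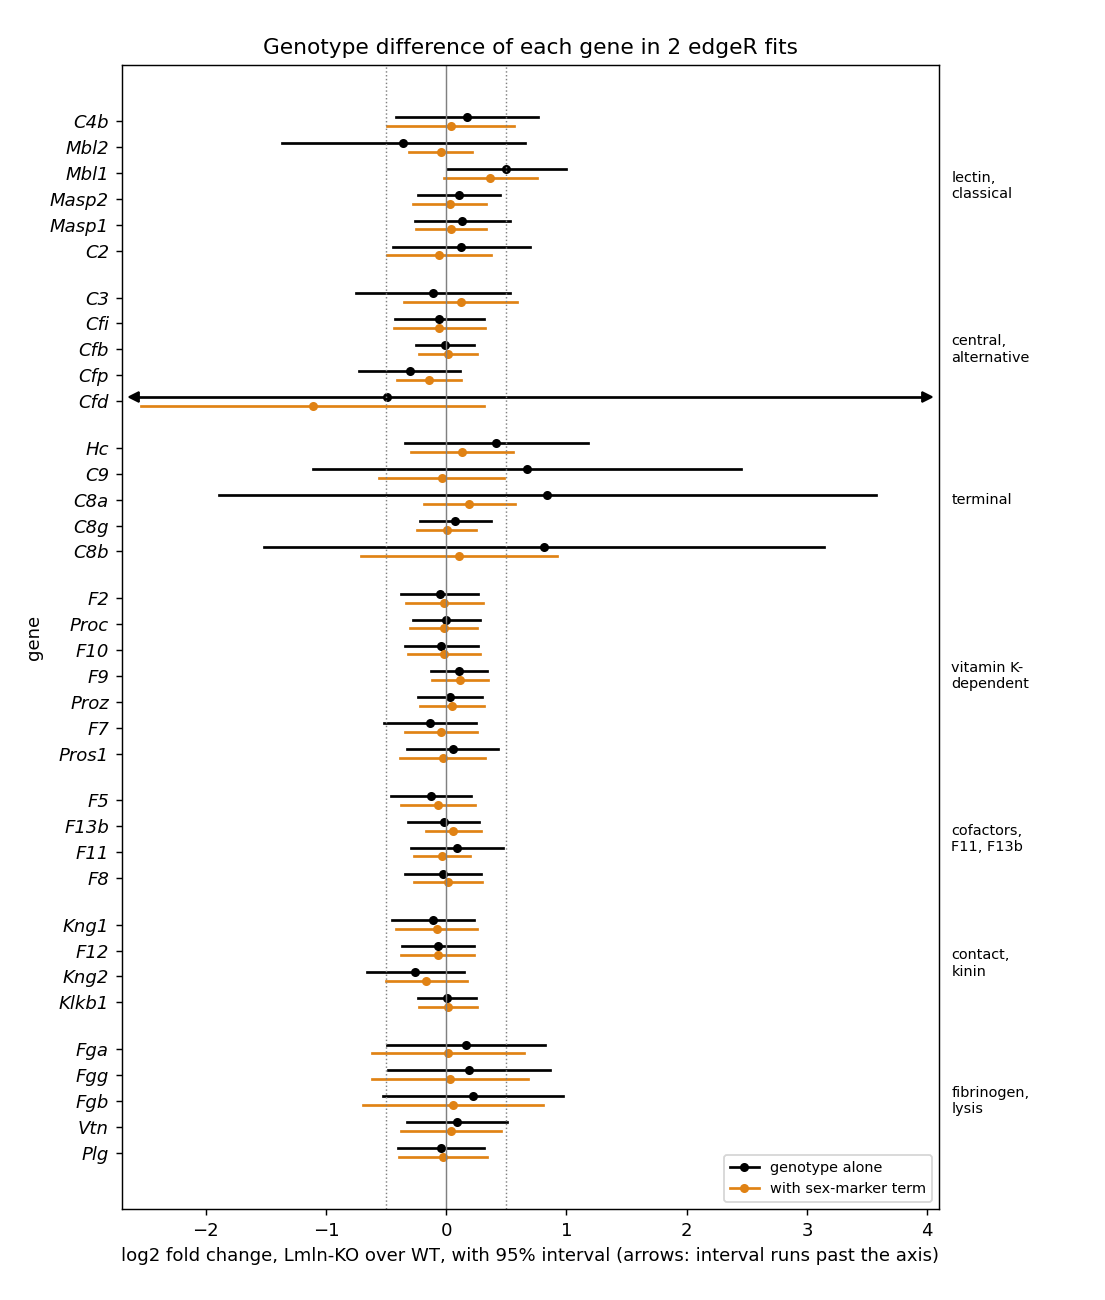
Log2 fold change of each gene, Lmln-KO over WT, with its 95% interval, in the edgeR fit by genotype alone (black) and with the sex-marker term (orange); dotted lines mark -0.5 and 0.5, and arrows an interval past the axis. Intervals of C8a, C8b and C9 run far beyond the dotted lines by genotype alone and shrink with the term, while those of F9, Klkb1 and Proz are narrow in both.

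Among the genes that start the lectin and classical pathways, 5 of 6 had a positive log2 fold change (median 0.13, or 0.033 with the sex-marker term). Mbl1 and Mbl2 encode the mouse mannose-binding lectins, which recognise sugars on microbes. Mbl1 measured 266, 219.5 and 184 CPM in Lmln-KO replicates 1, 2 and 3, against 189, 171 and 114 CPM in WT replicates 1, 2 and 3. Lmln-KO livers averaged 223 ± 41.2 CPM, against 158 ± 39.5 CPM for WT livers (SD, n = 3 each), and the lowest Lmln-KO library lay just under the highest WT library. The log2 fold change of Mbl1 was 0.50 (SE 0.21, 95% interval 0.00255 to 0.995), with an unadjusted p of 0.0491 and an adjusted p of 0.933 in edgeR. Adding the sex-marker term gave 0.37 (edgeR adjusted p 0.987). Leaving out Lmln-KO replicate 1 gave 0.36, and leaving out WT replicate 3 gave 0.31.

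Mbl2 measured 145, 151 and 315 CPM in Lmln-KO, against 159.8, 285 and 338 CPM in WT. Its 3 low libraries were those with Y-linked transcripts, in both genotypes, and the groups overlapped (log2 fold change -0.36, SE 0.41, edgeR adjusted p 0.936). It ran from -0.81 without Lmln-KO replicate 3 to -0.13 when WT replicate 3 was left out. With the sex-marker term the log2 fold change of Mbl2 was -0.05 (95% interval -0.31 to 0.22). The ratio of Mbl1 to Mbl2, per kb within a library, was 1.27, 1.01 and 0.405 in Lmln-KO and 0.82, 0.416 and 0.233 in WT. In other words Mbl1 was the more abundant lectin transcript in Lmln-KO replicates 1 and 2 and Mbl2 in the rest.

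Masp1 and Masp2, the proteases that the lectins activate, had log2 fold changes of 0.13 and 0.10. Masp1 measured 301, 262 and 255 CPM in Lmln-KO, against 313, 219 and 212 CPM in WT, and Masp2 measured 137, 139 and 114 against 129.6, 98.5 and 134 CPM. In both the groups overlapped. C2, the protease of the classical C3 convertase, measured 53.9, 52.0 and 33.3 CPM in Lmln-KO, against 48.3, 30.9 and 48.4 CPM in WT. C4b, the C4 protein itself, was highest in Lmln-KO replicate 1 with 2389 CPM and lay between 1305 and 1717 CPM in the other 5 libraries. Its near-identical neighbour C4a, from which reads may be hard to part, was 4.57 to 19.7 times lower per kb.

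In the central and alternative pathway, all 5 genes had a log2 fold change below 0 by genotype alone (median -0.11), while with the sex-marker term C3 and Cfb were above 0 (median -0.06). C3 measured 11781, 8816 and 14235 CPM in Lmln-KO, against 8539.9, 13466 and 15614.5 CPM in WT, a log2 fold change of -0.11 (SE 0.28). Its 3 low libraries were again those with Y-linked transcripts. Cfi, the protease that inactivates C3b, overlapped between the groups and ran from 549 to 676 CPM in Lmln-KO, against 551 to 724 CPM in WT. Cfp encodes properdin, the stabiliser of the alternative convertase, which is made by myeloid cells and lies on the X chromosome. It measured 14.5, 14.4 and 18.6 CPM in Lmln-KO, against 14.97, 22.9 and 20.7 CPM in WT, with the smallest p of its pathway (log2 fold change -0.30, edgeR adjusted p 0.933). Kupffer cell markers summed to 153 to 186 CPM in Lmln-KO, against 167 to 229 CPM in WT, and monocyte and neutrophil markers to 4.25 to 7.93 against 7.07 to 8.87 CPM; 1 of 6 and 0 of 3 tested markers of these lists were above 0 in log2 fold change, and their part in the Cfp values was not tested.

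Cfd was at or close to the limit of detection in the libraries with Xist. It had 52, 54 and 4 counts in Lmln-KO, against 124, 0 and 0 counts in WT, so nearly all its counts fell in the 3 libraries with Y-linked transcripts. Adipocyte markers were near 0 in every library: Adipoq, Plin1, Lep and Retn together reached at most 0.378 CPM in Lmln-KO, against 0.115 CPM in WT. The log2 fold change of Cfd, -0.49, had an SE of 1.95 in edgeR (adjusted p 0.981). The sex-marker term gave -1.11 (SE 0.61, edgeR adjusted p 0.987). Without WT replicate 1, where both remaining WT libraries have 0 counts, no fold can be read.

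The way reads were counted touched several genes of these pathways. Counting took no account of strand, and by the default of the counting program a read that overlaps exons of more than 1 gene is given to none. Cfb, which encodes factor B, the protease of the alternative convertase, and C2 lie 85 bases apart on chromosome 17, and the predicted gene Gm20547 has exons over both. Gm20547 had 0 counts in all libraries, while its exons cover 79.5% of the exon bases of Cfb and 42.8% of those of C2. Cfb measured 50.8, 48.4 and 51.8 CPM in Lmln-KO, against 48.8, 46.6 and 56.8 CPM in WT, and the groups overlapped. Over all its exons that is 17.9 CPM per kb, and over the 579 bases that belong to Cfb alone it would be 87.3 CPM per kb. The level of Cfb relative to other genes is thus not known from these counts, although its ratio between libraries (log2 fold change -0.01, 95% interval -0.26 to 0.23) rests on the same bases in each.

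Other overlaps were with Tardbp, on the opposite strand from Masp2 (54.9% of its exon bases), and with Gm45753, on the same strand as Klkb1 (43.2%). Plg shared 11.3% with Slc22a3, Fgg 5.49%, F5 3.53% and Hc 1.21% with other genes. Klkb1 (plasma prekallikrein) would rank at 73.95 in place of 42.0 CPM per kb over its own bases, and Masp2 at 84.1 in place of 37.9.

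**Figure D3:**
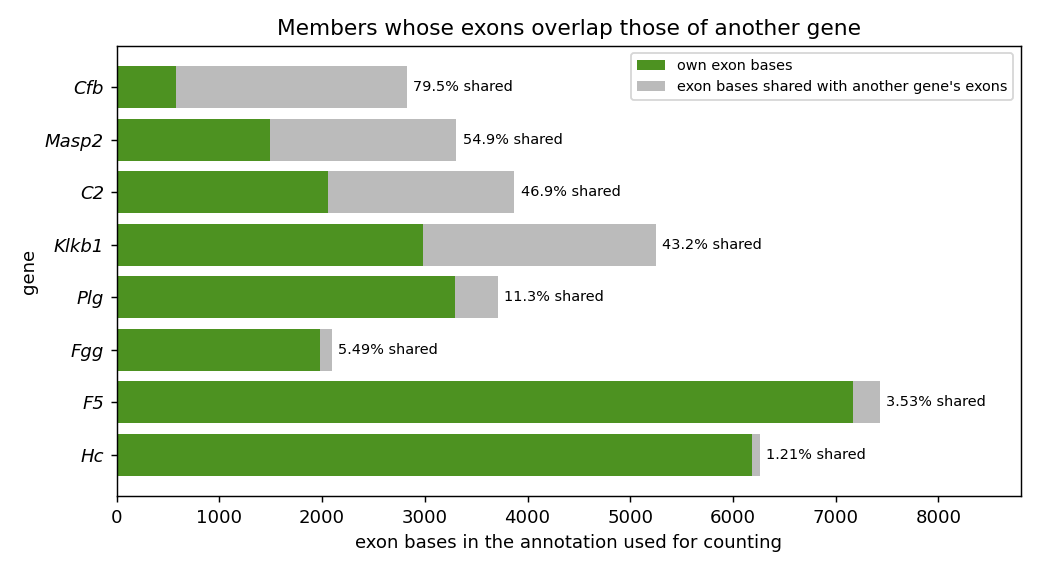
Exon bases of the 8 genes whose exons overlap those of another gene in the annotation used for counting, split into own bases (green) and shared bases (grey). Of the 8, Cfb has the largest share of shared bases, 79.5%, and Hc the smallest, 1.21%.

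The widest spread between libraries was in the terminal pathway, whose proteins form the membrane pore. C8a, the alpha chain of C8, measured 1335, 907 and 215 CPM in Lmln-KO, against 1003, 177 and 191 CPM in WT. C8b, the beta chain, measured 349, 304 and 70.6 CPM in Lmln-KO, against 258, 49.4 and 105 CPM in WT. C9, which polymerises into the pore wall, measured 823, 677 and 173 CPM in Lmln-KO, against 572, 208 and 271 CPM in WT. In each of them the high libraries were Lmln-KO replicates 1 and 2 and WT replicate 1, the 3 with Y-linked transcripts. Their mean level there was 5.57 times that of the 3 libraries with Xist for C8a, 4.06 times for C8b and 3.18 times for C9. These are descriptions of 6 libraries, in which the labels do not give sex.

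By genotype alone the log2 fold changes of C8a, C8b and C9 were 0.84 (SE 1.04), 0.81 (SE 0.89) and 0.67 (SE 0.70), with edgeR adjusted p of 0.936, 0.936 and 0.933. Each moved strongly when a library was left out: that of C8a ran from 0.30 without Lmln-KO replicate 1 to 2.16 when WT replicate 1 was left out. With any 1 of the 6 libraries left out, it ran from 0.41 to 1.65 for C8b and from 0.28 to 1.22 for C9. With the sex-marker term they were 0.19, 0.11 and -0.04, the last with its sign turned. Among libraries with Y-linked transcripts, the difference in log2 CPM, Lmln-KO minus WT, was 0.13, 0.33 and 0.38, and within those with Xist it was 0.22, -0.03 and -0.46. Each of these sets has a single library of 1 genotype. Among those with Xist it is Lmln-KO replicate 3, aged 39 weeks against 46 weeks for WT, so genotype and age cannot be told apart there.

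Hc, which encodes complement C5, measured 2402, 1587 and 1077 CPM in Lmln-KO, against 1698, 1023 and 1079 CPM in WT, and its high libraries were the same 3. Its log2 fold change was 0.41 (SE 0.33, edgeR adjusted p 0.933), 0.08 without Lmln-KO replicate 1 and 0.13 with the sex-marker term. C8g, the gamma chain, a lipocalin that joins C8a and is coded on another chromosome, varied little: 225, 253 and 199 CPM in Lmln-KO, against 229.8, 209.7 and 203 CPM in WT. The chains of C8 were therefore not in a fixed ratio. C8a stood at 2.44, 1.47 and 0.443 times C8g per kb in Lmln-KO, and at 1.79, 0.346 and 0.387 times in WT. C8b stood at 0.912, 0.704 and 0.208 times C8g in Lmln-KO, and at 0.66, 0.138 and 0.303 times in WT. C6, a terminal component that is not among the 36 and was chosen after its values were seen, measured 326, 347 and 13.7 CPM in Lmln-KO, against 261, 18.6 and 19.1 CPM in WT. C7, also outside the 36, was far lower: 2.5, 2.74 and 1.28 CPM in Lmln-KO, against 2.38, 2.57 and 1.67 CPM in WT. For C7 the libraries with Y-linked transcripts overlapped those with Xist.

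**Figure D4:**
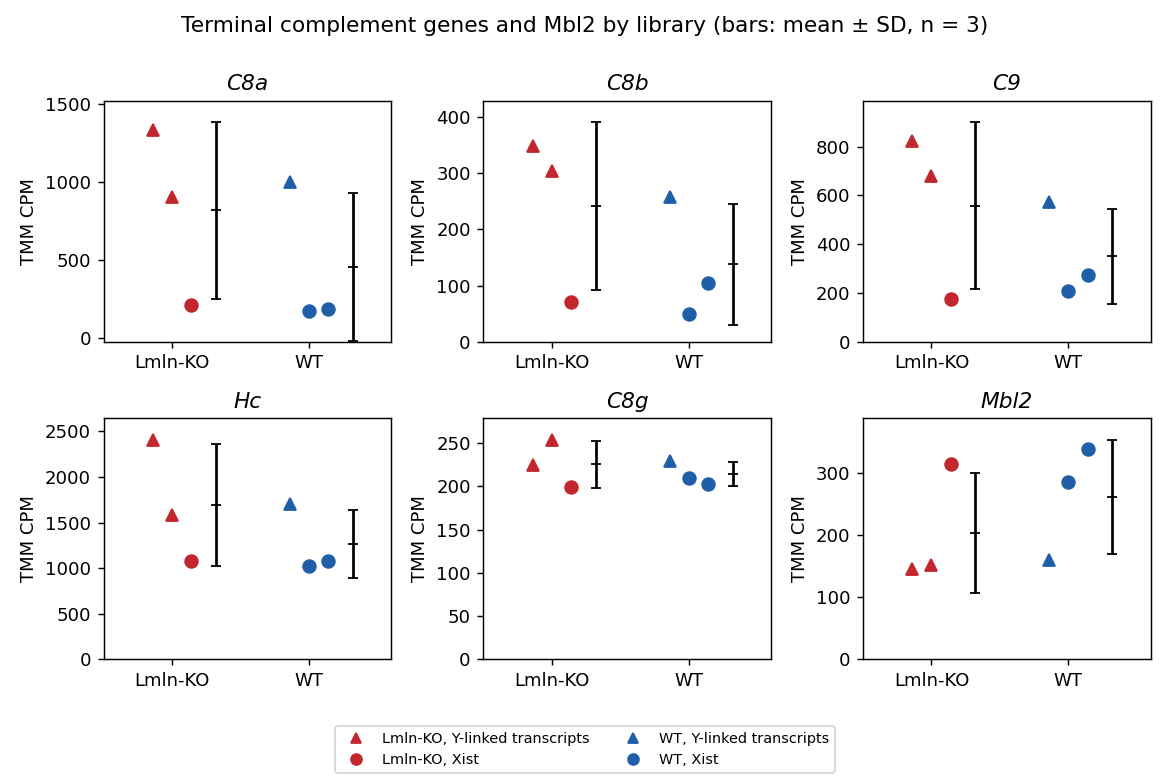
Normalized level (TMM CPM) of 5 terminal complement genes and Mbl2 in each library, Lmln-KO in red at left and WT in blue at right, with the mean and SD of each group (n = 3); triangles have Y-linked transcripts and circles Xist. C8a, C8b, C9 and Hc are higher in triangles, Mbl2 is lower in triangles, and C8g stays between 199 and 253 CPM.

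This division of the libraries reached other genes too. Libraries with Y-linked transcripts and libraries with Xist did not overlap for 16 of the 36 genes, or 44.4%, against 26.3% of all tested genes. Here too the share over all tested genes is not matched for level. Libraries with Y-linked transcripts lay higher for Masp1, Mbl1, Cfd, Hc, C8a, C8b, C8g, C9 and F11, and lower for Mbl2, C3, Cfp, F5, F7, F13b and Kng2. For these 16 genes the median log2 fold change between genotypes was 0.027 by genotype alone and -0.017 with the sex-marker term. For the other 20 it was 0.019 and 0.014. By genotype alone the log2 fold changes ran from -0.49 to 0.84 for the 16 and from -0.11 to 0.23 for the 20. The split was made on these same libraries, whose sets are unevenly spread over the genotypes, so these ranges are not a test.

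Upstream sequence is shown for C8a, C8b, C9 and Hc, the terminal genes in which this division was widest, to set the stretches next to their starts side by side. The 250 bases before the RefSeq start (GRCm38.p6, written in the direction of the gene) lie at chr4:104876399-104876648 for C8a (minus strand), chr4:104766067-104766316 for C8b (plus strand), chr15:6445096-6445345 for C9 (plus strand) and chr2:35061413-35061662 for Hc (minus strand). Capitals mark matches, on either strand, to GTTAAT, a core of sites for the hepatocyte factor HNF1, to TTCNNNGAA, the palindrome bound by STAT factors, and to CTGGGAA, the response element of interleukin 6.
C8a: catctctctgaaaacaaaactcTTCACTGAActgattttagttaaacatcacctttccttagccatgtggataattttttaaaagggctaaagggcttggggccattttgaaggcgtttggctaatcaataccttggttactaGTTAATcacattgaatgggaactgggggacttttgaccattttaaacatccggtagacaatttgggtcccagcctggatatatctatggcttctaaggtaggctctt
C8b: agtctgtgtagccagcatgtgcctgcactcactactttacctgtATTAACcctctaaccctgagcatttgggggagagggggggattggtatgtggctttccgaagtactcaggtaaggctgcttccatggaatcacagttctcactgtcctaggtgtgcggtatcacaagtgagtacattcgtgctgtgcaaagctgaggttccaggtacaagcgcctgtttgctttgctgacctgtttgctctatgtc
C9: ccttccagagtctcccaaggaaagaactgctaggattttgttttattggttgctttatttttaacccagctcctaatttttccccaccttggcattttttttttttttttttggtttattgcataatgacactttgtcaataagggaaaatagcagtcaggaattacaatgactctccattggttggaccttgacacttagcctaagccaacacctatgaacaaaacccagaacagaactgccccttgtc
Hc: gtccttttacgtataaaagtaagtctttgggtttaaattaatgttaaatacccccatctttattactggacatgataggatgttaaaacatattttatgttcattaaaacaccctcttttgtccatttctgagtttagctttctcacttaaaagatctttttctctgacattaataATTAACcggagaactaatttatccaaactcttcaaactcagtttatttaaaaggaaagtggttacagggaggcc
C8a has the HNF1 letters as GTTAAT and the STAT letters as TTCACTGAA, C8b and Hc have the HNF1 letters on the other strand as ATTAAC, and C9 has none of the 3 in this window. Of 32851 promoter windows of the same length, 6.43% held the HNF1 letters, 7.02% the STAT letters and 9.1% the interleukin 6 letters. Of the 36 genes 28 had a window, and 9, 6 and 4 of these held them. The annotation used for counting starts C9 at 6445327 and Hc at 35061438, inside the windows shown. A match of letters does not show that a factor binds there.

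Fibrinogen is built from the chains of Fga, Fgb and Fgg, whose genes lie side by side on chromosome 3 between 83007724 and 83049863, with gaps of 11026 and 6513 bases. The levels of the chains varied together from library to library, and Lmln-KO replicate 1 stood apart from the other 5. Fga measured 7251, 3572 and 3675 CPM in Lmln-KO, against 4723, 4047 and 4187 CPM in WT. Fgb measured 7061, 3086 and 3277 CPM in Lmln-KO, against 4232, 3463 and 3788 CPM in WT. Fgg measured 4670.4, 2257 and 2305 CPM in Lmln-KO, against 2985, 2518 and 2603 CPM in WT. In each case the other 2 Lmln-KO libraries lay below all 3 WT libraries.

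Between genotypes the log2 fold changes of Fga, Fgb and Fgg were 0.16, 0.23 and 0.19, each with an SE of 0.29 to 0.32 and an edgeR adjusted p of 0.942 to 0.954. Without Lmln-KO replicate 1 they were -0.25, -0.26 and -0.24, so the direction rests on that library. Alb, which encodes albumin, had its lowest level in the same library: 45714.5 CPM in Lmln-KO replicate 1, 55393 and 60834 CPM in Lmln-KO replicates 2 and 3, and 67736, 62501 and 74329 CPM in WT. The other hepatocyte markers of the list were not lowest in that library, and Asgr1 was highest there with 361 CPM. The part of these marker levels in the fibrinogen values was not tested. C4b, Hc and Vtn were also highest in Lmln-KO replicate 1, as were 13 of the 36 genes in all, or 36.1%, against 15.6% of all tested genes. WT replicate 3 was the highest library for 15 of the 36, where the share of all tested genes was 23.7%. These shares over all tested genes are likewise not matched for level.

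The ratio of the chains hardly moved while their level changed. Per kb, Fga stood at 1.08 to 1.12 times Fgg and at 1.3 to 1.48 times Fgb over all 6 libraries. Fgg stood at 1.2 to 1.33 times Fgb, with the lowest value in Lmln-KO replicate 1.

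**Figure D5:**
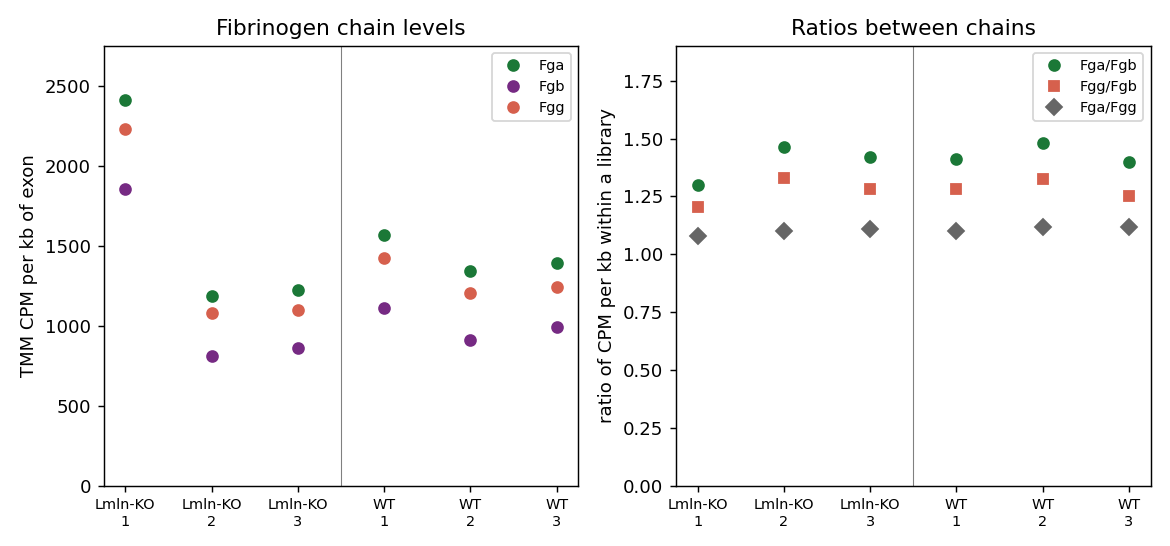
Left, level of the 3 fibrinogen chains (TMM CPM per kb of exon) in each library; right, ratio of the levels of 2 chains within a library. Lmln-KO replicate 1 has the highest level of each chain, while Fga/Fgg stays between 1.08 and 1.12 in all libraries.

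The 250 bases before the RefSeq starts of the 3 chains (GRCm38.p6) are shown because the levels of these genes varied together. They lie at chr3:83025903-83026152 for Fga (plus strand), chr3:83049864-83050113 for Fgb (minus strand) and chr3:83007474-83007723 for Fgg (plus strand), with capitals as above.
Fga: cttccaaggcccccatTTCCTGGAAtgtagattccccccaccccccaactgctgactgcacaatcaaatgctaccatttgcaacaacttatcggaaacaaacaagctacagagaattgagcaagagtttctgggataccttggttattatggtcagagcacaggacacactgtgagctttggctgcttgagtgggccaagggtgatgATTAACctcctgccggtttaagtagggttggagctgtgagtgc
Fgb: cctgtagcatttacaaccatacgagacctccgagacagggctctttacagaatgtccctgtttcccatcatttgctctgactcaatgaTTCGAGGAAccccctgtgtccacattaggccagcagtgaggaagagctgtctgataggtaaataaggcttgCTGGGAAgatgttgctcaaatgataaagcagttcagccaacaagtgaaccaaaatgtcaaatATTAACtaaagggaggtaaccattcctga
Fgg: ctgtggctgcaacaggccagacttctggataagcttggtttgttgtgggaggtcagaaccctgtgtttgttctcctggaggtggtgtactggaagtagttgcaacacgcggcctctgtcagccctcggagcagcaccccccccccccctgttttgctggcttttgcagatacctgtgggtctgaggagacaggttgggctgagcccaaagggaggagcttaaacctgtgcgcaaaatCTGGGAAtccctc
The HNF1 letters lie 43 to 38 bases before the RefSeq start of Fga and 29 to 24 bases before that of Fgb. The annotation used for counting starts Fga at 83026076, inside its window, so the HNF1 letters of Fga lie within the gene as counted. The interleukin 6 letters lie 91 to 85 bases before the start of Fgb and 13 to 7 bases before that of Fgg. A stretch with the STAT letters lies farther out in Fga (TTCCTGGAA) and Fgb (TTCGAGGAA).

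Plg and Vtn, the other members of this group, overlapped between the genotypes. Plg, whose product plasmin dissolves fibrin, measured 2187, 1743 and 1998 CPM in Lmln-KO, against 1951, 1933 and 2233.5 CPM in WT (log2 fold change -0.05, 95% interval -0.40 to 0.31). Vtn had a log2 fold change of 0.09 (95% interval -0.33 to 0.51).

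Among the vitamin K-dependent factors, differences between genotypes were small. Of F2 (prothrombin), F7, F9, F10, Proc (protein C), Pros1 (protein S) and Proz (protein Z), 3 had a log2 fold change above 0 and 4 below, and all 7 lay between -0.14 and 0.11. Their summed level ran from 751 to 870 CPM per kb over the 6 libraries. F2 was the most abundant with 331 CPM per kb, 2.93 to 3.33 times F10, the factor whose active form cuts prothrombin. F9, the factor lacking in haemophilia B, is X-linked and was the 1 gene without overlap: 213, 203 and 209.8 CPM in Lmln-KO, against 191, 201 and 188 CPM in WT. The lowest Lmln-KO library and the highest WT library of F9 were 202.6 and 201.3 CPM. Its log2 fold change was 0.11 (SE 0.10, 95% interval -0.12 to 0.34, edgeR adjusted p 0.933), and 0.09 to 0.14 when any library was left out.

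F7, F10 and Proz lie in a row on chromosome 8, with gaps of 1.5 and 4.24 kb, and differed in level and in spread. F7 measured 87.0, 73.5 and 104.8 CPM in Lmln-KO, against 87.4, 88.6 and 115.6 CPM in WT. F10 kept to 284.5 to 293 CPM in Lmln-KO, against 268 to 345 CPM in WT, and Proz to 378 to 404 CPM in Lmln-KO, against 361 to 411 CPM in WT. Proc measured 328 to 356 CPM in Lmln-KO, against 306 to 364 CPM in WT, with a log2 fold change nearest to 0 of all 36 genes (95% interval -0.28 to 0.28).

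The cofactor F5 (factor V) measured 1005, 975 and 1125 CPM in Lmln-KO, against 1043, 1093 and 1258 CPM in WT, a log2 fold change of -0.13 (SE 0.14, edgeR adjusted p 0.936). F8, whose loss causes haemophilia A and which lies on the X chromosome, measured 54.2, 56.3 and 73.6 CPM in Lmln-KO, against 65.1, 64.3 and 58.2 CPM in WT, with a log2 fold change of -0.03 (95% interval -0.34 to 0.29). Sinusoidal endothelial markers summed to 403, 422 and 511 CPM in Lmln-KO, against 447, 459 and 467 CPM in WT. The library with the highest F8, Lmln-KO replicate 3, also had the highest sum, but the single markers were divided. Stab2, Clec4g, Kdr and Fcgr2b were highest in that library, and Lyve1, Pecam1, Oit3 and Gpr182 in WT replicate 3, where F8 was 58.2 CPM. The part of these marker levels in the F8 values was not tested. F11 (factor XI) and F13b, the carrier chain of the fibrin-crosslinking factor XIII, had log2 fold changes of 0.09 and -0.02.

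The contact and kinin genes lie partly on the chromosome of Lmln. Kng2, Kng1 and Masp1 stand close together on chromosome 16, at 10.03, 9.98 and 9.54 Mb from Lmln, and Pros1 lies 29.73 Mb from it. Kng1 and Kng2 are the mouse kininogen genes, which lie head to head 28.4 kb apart, encode the precursors of bradykinin and may share reads through their related sequences. Kng1 measured 1286, 1051 and 1242 CPM in Lmln-KO, against 1225, 1236 and 1410.4 CPM in WT. Kng2 measured 201, 148 and 218 CPM in Lmln-KO, against 200.4, 214 and 263 CPM in WT. Both were lowest in Lmln-KO replicate 2 and highest in WT replicate 3, and the groups overlapped. Kng2 had the smallest p of its group (log2 fold change -0.26, SE 0.17, edgeR adjusted p 0.933), and -0.11 without Lmln-KO replicate 2. Kng1 stood at 5.37, 5.97 and 4.8 times Kng2 per kb in Lmln-KO, and at 5.14, 4.85 and 4.52 times in WT.

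Klkb1, the protease that frees bradykinin from kininogen, had the narrowest spread of the 36 genes: 217, 219 and 227 CPM in Lmln-KO, against 219.9, 208 and 232 CPM in WT. F12 (factor XII, which starts contact activation) ranged from 343 to 369.8 CPM in Lmln-KO and from 336 to 425 CPM in WT, with a log2 fold change of -0.07 (95% interval -0.36 to 0.23).

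Other genes of these pathways were counted for comparison. Of 66 such genes (further complement components, receptors and regulators, clotting and fibrinolysis genes, the vitamin K cycle and liver transcription factors), 59 were tested and none passed in edgeR or DESeq2. At an unadjusted p under 0.05 edgeR had 1 higher and 3 lower in Lmln-KO, or in all tested genes 1.52% and 3.14%, and the median log2 fold change of the 59 was -0.0051. Among them were Itgb2 and Itgax, chains of the leukocyte complement receptors (log2 fold changes -0.60 and -1.12), and Foxa2, a hepatocyte transcription factor (0.98), each with an edgeR adjusted p of 0.933.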

How the data were processed

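RNA was isolated from whole liver, depleted of ribosomal RNA and made into strand-marking libraries that were read as pairs, as the labels' protocols state. The deposited values are raw counts per gene name, made by the authors with featureCounts 2.0.1 on GRCm38 (Ensembl release 102), with no option for strand, pairs or multiple overlaps, per the file headers. The submitters' processing notes name Subread 2.0.2 and edgeR 3.36.0, and settings of the alignment are not given in the sources used here. Depth was 17388360 to 22494696 counts per library, 3 libraries per group.

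Genes were kept by filterByExpr (minimum count 10), scaled by TMM and tested for Lmln-KO over WT with edgeR 4.0.16 (robust quasi-likelihood, R 4.3.3, Benjamini-Hochberg at 0.05 over 18703 genes). CPM are TMM-normalized values computed from the counts, and 95% intervals come from the same fit. Scripts were tested on simulated data. Alternatives used DESeq2 1.42.0, limma 3.58.1, other scalings and filters, a sex-marker term (Xist against Y-linked transcripts), a replicate block and leaving out each library. The labels do not say that libraries came from separate animals beyond their numbering, so p-values measure the spread between these libraries.

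Every library's value is given for genes with an unadjusted p under 0.05, no overlap between groups, an absolute log2 fold change of at least 0.5, the smallest p of their role group, a place on chromosome X or within 15 Mb of Lmln, exons shared with another gene, or a partner chain or paralogue. C3, Cfd, C4b, Cfi, F7, C6, C7 and Alb were picked for further values after these were seen. The genes and lists were chosen with earlier results of these data known. The values of 1 further gene of the related lists are not reported here.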

Additional observations from a re-analysis of the deposited data

How the results depend on the processing

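No gene of the 36 that had a p passed an adjusted p of 0.05 in any of 17 settings; Cfd had none in DESeq2 and was not tested with the stricter filter. Over all tested genes the count was 0 in edgeR, against 24 in DESeq2, 31 in DESeq2 with that term for sex markers (a setting chosen after seeing the data), 3 with no filter on low counts, 1 with the sex-marker term, 1 with the replicate block, and 0 to 3 when a library was left out. Among the 36, the count at an unadjusted p under 0.05 was 1, but 0 with limma-voom, without robust fitting, with the stricter filter and with the sex-marker term in edgeR or DESeq2, and 0 to 4 when a library was left out (4 without WT replicate 1). The 4 were Masp1, Mbl1, Cfp and Cfd, and for Cfd no fold can be read in that setting. The share of all tested genes was 4.66% in edgeR by genotype alone and 4.34% with the sex-marker term. It was not taken in the other settings, so their counts cannot be set against a background. The median log2 fold change of the 36 stayed between -0.049 and 0.077 when a library was left out. Same-numbered libraries correlated at 0.465, -0.311 and 0.405 in their deviations. The negative value was between a library with Y-linked transcripts and a library with Xist. Differently numbered libraries of the same set also correlated, at 0.473 (Lmln-KO replicate 2 and WT replicate 1) and 0.49 (Lmln-KO replicate 3 and WT replicate 2). The values thus follow this division, and cannot tell whether the numbers pair the samples.

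Of 611 values of single genes, 68 had the opposite sign to the edgeR value. With the sex-marker term, in edgeR and then DESeq2, log2 fold changes were -0.057 and -0.049 for C2, 0.12 and 0.13 for C3, 0.014 and 0.023 for Cfb, -0.038 and -0.030 for C9, -0.028 and -0.019 for Pros1, 0.015 and 0.024 for F8, -0.036 and -0.027 for F11, and 0.059 and 0.068 for F13b. Cfb was 0.0055 with no filter. Cfd was 2.59 with limma-voom, 0.79 with the replicate block and 0.64 in DESeq2 with the sex-marker term. Proc was 0.0095 with RLE scaling, 0.0053 with total counts, 0.0095 in DESeq2, 0.0019 with limma-voom, 0.016 with no filter and 0.0025 with the replicate block. Klkb1 was -0.022 with upper-quartile scaling and -0.0081 with the stricter filter. The cause was not tested.

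Ranges when a library was left out crossed 0 for C2 (-0.060 to 0.32), C3 (-0.32 to 0.078), C4b (-0.16 to 0.33), C8g (-0.015 to 0.17), Cfb (-0.069 to 0.078), Cfd (-1.09 to 8.14, the upper end without WT replicate 1, where both remaining WT libraries have 0 counts and no fold can be read), Cfi (-0.16 to 0.076), F10 (-0.11 to 0.080), F11 (-0.029 to 0.26), F12 (-0.14 to 0.034), F13b (-0.11 to 0.042), F2 (-0.10 to 0.020), F7 (-0.27 to 0.0082), F8 (-0.17 to 0.060), Fga (-0.25 to 0.34), Fgb (-0.26 to 0.43), Fgg (-0.24 to 0.37), Klkb1 (-0.035 to 0.046), Masp2 (-0.024 to 0.20), Plg (-0.12 to 0.038), Proc (-0.072 to 0.053), Pros1 (-0.12 to 0.17), Proz (-0.0091 to 0.087) and Vtn (-0.049 to 0.18). Cfd had 0 counts in 2 libraries, WT replicates 2 and 3, which both have Xist and held 18272045 and 17397960 counts in all. The shallowest library, WT replicate 1 with 17388360, had 124 counts of Cfd.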
